A study of Rattus norvegicus with 12 samples.

Results

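Serotonin handling in the lung was examined through 7 genes: the transporter gene Slc6a4, the receptor genes Htr2a, Htr2b, Htr2c and Htr1b, the synthesis gene Tph1 and the breakdown gene Maoa. All probe sets whose annotated symbol was one of these genes were taken, which gave 10 of the 31099 probe sets of the array, for 6 of the 7 genes. Tph1 had no probe set under its symbol in the annotation used here. By gene, these are 6 of the 14217 genes with a probe set of their own. The genes were chosen by their function and by results of these arrays that were already known, in particular the higher log2 value of Htr2c in heart failure lungs of placebo rats. Values of Htr2c in comparisons with those arrays are therefore given as a description, without a test.

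The arrays came from whole lungs of 12 male Sprague-Dawley rats, 3 in each of 4 groups. CHF ketotifen rats had a band placed around the ascending aorta as juveniles, at a body weight of 91 ± 9 g, and drank ketotifen at 1 mg per kg per day. CHF placebo rats had the same band without the drug, and are called untreated in the study's design text. Sham ketotifen and sham placebo rats were operated on without a band, with and without the drug. All lungs were taken 9 weeks after surgery, when the banded rats had left heart failure with pulmonary hypertension. CHF is the labels' abbreviation for congestive heart failure, and ketotifen is a mast cell stabilizer that also blocks a histamine receptor. No genetic change was made, ages beyond "juvenile" and "age matched" were not given, and each array held 1 lung. The comparisons ask how banding and the drug went with the lung's serotonin genes.

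Serotonin is made from tryptophan by tryptophan hydroxylase, the product of Tph1 outside the brain. It is carried in blood by platelets and, in rodents, is also stored in mast cell granules. The lung clears serotonin from the blood: the transporter SERT, made from Slc6a4, takes it into endothelial cells, where monoamine oxidase A, made from Maoa, breaks it down. In pulmonary arteries SERT is also found on smooth muscle cells, and the receptors encoded by Htr1b, Htr2a and Htr2b are known from work on vessel constriction and pulmonary hypertension. Htr2c encodes a receptor best known from brain.

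Values are log2 expression after GCRMA, a method that removes background and scales arrays to each other, so a difference of 1 is a doubling. A probe set was tested if it reached a log2 value of 4 on at least 3 arrays, since lower values are close to background. Of the 10 serotonin probe sets 3 passed, for Slc6a4, Maoa and Htr2c, among 16536 of all probe sets. The Htr2c probe set passed through CHF placebo arrays in particular: it reached 4 on all 3 of them, on 2 CHF ketotifen arrays and on 1 sham ketotifen array. All differences come from a single limma fit of the 12 arrays, with adjusted p by Benjamini-Hochberg over the 16536 probe sets and a call at an adjusted p under 0.05.

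The lungs carried their tissue's markers: the mean of 6 measured lung genes, among them surfactant genes, was between 13.95 and 14.55 on all arrays. Between 15809 and 16056 probe sets per array reached a value of 4. For beta-actin, the control probe set at the 3' end exceeded that at the 5' end by 3.90 to 4.52 in 3 sham lungs (placebo 2 and 3, ketotifen 2) and by 2.90 to 3.45 in the others. A larger gap is a known sign of shortened RNA. The 5 measured heart muscle genes averaged 6.13 and 9.64 in sham ketotifen lungs 1 and 2 and 8.46 in sham placebo lung 3, against 2.57 to 2.97 in the other lungs. CHF ketotifen arrays 1 and 3 were the closest pair, with an SD of their difference of 0.26, where the next closest pair had 0.40. They were not identical and were counted as separate lungs.

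Promoters are shown for the monoamine oxidase genes Maoa and Maob, which were both lower in CHF ketotifen than in sham ketotifen lungs, and for Htr2c, of which 1 probe set was higher in CHF placebo than in sham placebo lungs. Each is the 250 bases before the annotated start of the gene in RefSeq (build GRCr8), 5′ to 3′ on the gene's strand, with GC boxes in capitals.
Maoa (chrX:8681373-8681622, minus strand): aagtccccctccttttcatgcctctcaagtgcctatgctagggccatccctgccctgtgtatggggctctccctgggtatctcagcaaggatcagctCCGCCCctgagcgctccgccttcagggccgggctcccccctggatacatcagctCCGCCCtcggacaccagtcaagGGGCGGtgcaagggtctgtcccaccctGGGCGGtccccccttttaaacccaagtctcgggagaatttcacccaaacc
Maob (chrX:8490155-8490404, plus strand): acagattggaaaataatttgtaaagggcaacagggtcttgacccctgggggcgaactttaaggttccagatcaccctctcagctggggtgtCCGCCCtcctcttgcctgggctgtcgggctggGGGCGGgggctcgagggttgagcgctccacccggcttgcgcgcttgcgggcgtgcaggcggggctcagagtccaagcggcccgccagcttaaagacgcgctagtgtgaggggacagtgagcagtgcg
Htr2c (chrX:115452940-115453189, plus strand): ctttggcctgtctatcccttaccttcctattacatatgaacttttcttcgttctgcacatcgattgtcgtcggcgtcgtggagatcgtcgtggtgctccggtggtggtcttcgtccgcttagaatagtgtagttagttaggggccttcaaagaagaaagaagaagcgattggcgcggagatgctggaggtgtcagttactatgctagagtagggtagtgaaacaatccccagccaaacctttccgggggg
The GC box, GGGCGG on either strand, is the core of sites for Sp1-family factors, and 30.5% of 33469 rat promoters of this length held at least 1. Maoa held 4 and Maob 2, without overlap, and Htr2c held none. None of the 3 windows held TATAAA on either strand, a motif present in 12.9% of the promoters. These matches describe the letters of the windows only.

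Counted over the 3 tested members, limma called 2 in CHF against sham lungs under ketotifen, Slc6a4 and Maoa, both lower, where 6.61% of all tested probe sets were called lower and 13.0% in either direction. For the average surgery effect it called Slc6a4 lower (9.92% of all) and Htr2c higher (11.0% of all), where 21.0% were called in either direction, and the Htr2c call is a description because that average contains the contrast known at the choice. For ketotifen against placebo in CHF it called 0 of 3 (1.22% of all), with 2 at an unadjusted p under 0.05 (2833 of 16536). For the drug in sham rats it called 0 (0.0847% of all), with 0 at an unadjusted p under 0.05 (2310 of 16536). For the interaction it called 0 (0.369% of all), with 3 at an unadjusted p under 0.05 (1778 of 16536). Htr2c is among the 2 and among the 3. There it is a description, because both comparisons use the CHF placebo arrays known at the choice. In CHF against sham lungs with placebo it called Htr2c higher, where 0.145% were called higher and 0.169% in either direction, and nothing is read from this count.

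Slc6a4, the serotonin transporter gene, was lowest in lungs of rats with both heart failure and ketotifen. Its log2 expression was 7.38, 6.67 and 7.67 in the 3 CHF ketotifen lungs, and 7.68, 8.54 and 9.35 in the CHF placebo lungs. It was 8.98, 9.02 and 8.63 in sham ketotifen lungs, and 8.39, 9.26 and 8.68 in sham placebo lungs. All 3 CHF ketotifen lungs lay below every other lung, the closest being CHF ketotifen lung 3 and CHF placebo lung 1. The group means were 7.24 ± 0.52 in CHF ketotifen, 8.52 ± 0.83 in CHF placebo, 8.88 ± 0.22 in sham ketotifen and 8.78 ± 0.44 in sham placebo lungs (SD, n = 3 each). In order of level the neighbours among the 3 higher groups differed by less than 1 SD of the more variable of them.

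Between CHF and sham lungs of ketotifen rats Slc6a4 fell by 1.64 on the log2 scale, a 3.11-fold difference (SE 0.39, 95% interval -2.50 to -0.77, limma adjusted p = 0.0251). These groups did not overlap, as was the case, in the lower direction, for 20.8% of all tested probe sets. In placebo rats the difference between CHF and sham lungs was -0.25 ± 0.39 (SE, interval -1.12 to 0.62, limma adjusted p = 0.765). Without CHF placebo lung 1 it was 0.17, so its direction rested on that lung. The average of both surgery effects was -0.94 ± 0.28 (limma adjusted p = 0.0361), which passed in 3 of the 12 runs that left out 1 lung, with limma adjusted p from 0.0132 to 0.0798.

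The drug comparisons of Slc6a4 use the same CHF ketotifen arrays again. Within heart failure the difference between ketotifen and placebo was -1.28 ± 0.39 (SE, interval -2.15 to -0.42, limma adjusted p = 0.135). The groups did not overlap, as was the case, in the lower direction, for 15.5% of all tested probe sets. Leaving out CHF placebo lung 1 gave -1.70 and an adjusted p of 0.0208 in limma. In sham rats the drug difference was 0.10 ± 0.39 (interval -0.77 to 0.97, limma adjusted p = 0.934), and without sham placebo lung 1 it was -0.09. The interaction, which tests whether the surgery effect differs between drug arms, was -1.38 ± 0.56 (interval -2.61 to -0.16, limma adjusted p = 0.418).

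Of the 12 runs without 1 lung 5 lost the call of Slc6a4 for surgery under ketotifen, those without CHF ketotifen lung 1 (limma adjusted p = 0.0584) or 2 (0.0929) or any sham ketotifen lung (0.0672, 0.0673 and 0.0519). Over all 12 runs the difference lay between -1.85 and -1.35. Without the 3 lungs with heart muscle signal, which leaves 1 sham ketotifen lung whose spread is taken from the other groups, it was -1.39 (limma adjusted p = 0.333, over alternatives 0.0081 to 0.333). With CHF ketotifen arrays 1 and 3 averaged into 1 sample it was -1.78 (adjusted p = 0.0503 in limma).

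**Figure D1:**
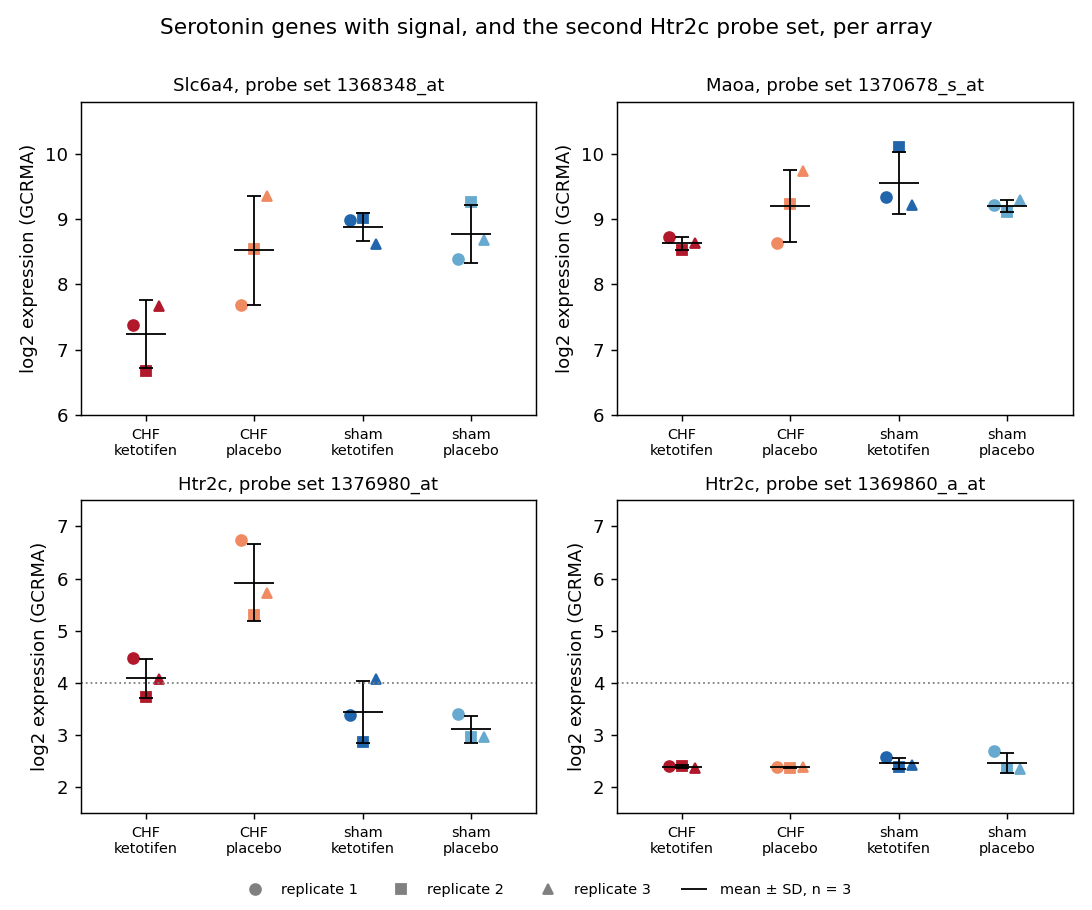
Log2 expression (y axis) of Slc6a4, Maoa and both Htr2c probe sets in each lung by group (x axis), with symbols for the replicate, bars for mean ± SD (n = 3) and a dotted line at 4 in the Htr2c panels. Slc6a4 is below 7.7 in all 3 CHF ketotifen lungs, and the brighter Htr2c probe set (lower left) is above 5.3 in all 3 CHF placebo lungs while the dimmer one (lower right) stays at or below 2.69.

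Maoa, which encodes the enzyme that oxidizes serotonin after uptake, was lower in CHF ketotifen than in sham ketotifen lungs by a smaller amount. It measured 8.72, 8.52 and 8.64 in CHF ketotifen lungs and 8.63, 9.23 and 9.75 in CHF placebo lungs. It measured 9.34, 10.10 and 9.22 in sham ketotifen lungs and 9.22, 9.11 and 9.29 in sham placebo lungs. The CHF ketotifen lungs lay below all sham ketotifen lungs, as was the case for 20.8% of all tested probe sets. They also lay below all sham placebo lungs, a pair for which no share over all probe sets was counted. CHF placebo lung 1 lay among the CHF ketotifen lungs. The means were 8.63 ± 0.10 in CHF ketotifen, 9.20 ± 0.56 in CHF placebo, 9.55 ± 0.48 in sham ketotifen and 9.21 ± 0.09 in sham placebo lungs (SD, n = 3 each). In order of level the neighbours among the 3 higher groups differed by less than 1 SD of the more variable of them. The probe set's name ends in _s_at, which in this array's design marks probes shared by several transcripts, so a contribution of a related transcript cannot be told apart.

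Under ketotifen Maoa fell by 0.93 on the log2 scale in CHF against sham lungs, 1.90-fold (SE 0.28, interval -1.53 to -0.32, limma adjusted p = 0.0498). The call ended in 10 of the 12 runs that left out 1 lung, all except those without CHF placebo lungs 1 or 3, with limma adjusted p from 0.0559 to 0.138. In placebo rats the surgery difference was 0.00 at 2 decimals (-0.0027 ± 0.28, interval -0.61 to 0.61, limma adjusted p = 0.997). The drug difference was -0.57 ± 0.28 in CHF rats (limma adjusted p = 0.315) and 0.35 ± 0.28 in sham rats (limma adjusted p = 0.594). The interaction was -0.92 ± 0.39 (limma adjusted p = 0.439), and the average surgery effect was -0.46 ± 0.20 (limma adjusted p = 0.108).

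Sham ketotifen lung 2, the lung with the highest Maoa value, also had the highest heart muscle signal, 9.64. Without that lung Maoa differed by -0.65 between CHF and sham lungs under ketotifen (limma adjusted p = 0.137). Without the 3 lungs with heart muscle signal, which leaves 1 sham ketotifen lung, it differed by -0.59. The part of heart muscle RNA in the Maoa value was not tested.

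Endothelial and macrophage genes moved with Slc6a4 and Maoa, in opposite directions. The mean of the 6 measured endothelial genes was 10.47, 10.07 and 10.53 in CHF ketotifen lungs and 10.33, 11.25 and 11.33 in CHF placebo lungs. It was 11.42 to 11.67 in sham ketotifen lungs and 11.54 to 11.64 in sham placebo lungs. The 4 lungs of lowest endothelial signal, the CHF ketotifen lungs and CHF placebo lung 1, were the 4 lungs of lowest Slc6a4 and of lowest Maoa. Of the 6 endothelial genes 5 were called lower in CHF against sham lungs under ketotifen, with a median difference of -1.37. Among all tested probe sets 6.61% were called lower there and 13.0% in either direction, with a median difference of -0.03. The mean of the 6 measured macrophage genes was between 10 and 10.33 in the 3 CHF ketotifen lungs, 10.10, 8.99 and 9.15 in CHF placebo lungs, and at most 8.81 in sham lungs. It was highest in the 4 lungs of lowest Slc6a4 and Maoa. Of the 6 macrophage genes 4 were called higher in CHF against sham lungs under ketotifen, with a median difference of 1.84, and of 4 club cell genes 2 were called lower there. In the same comparison 0 of 6 smooth muscle genes were called (median difference 0.25) and 0 of 6 fibroblast genes (-0.10). Of 2 tested platelet genes 1 was called higher. In whole lung, fewer cells of a type and less RNA per cell cannot be told apart.

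Taken relative to the endothelial mean of the same lung, Slc6a4 was -3.09, -3.40 and -2.85 in CHF ketotifen lungs, and -2.69, -2.53 and -2.79 in sham ketotifen lungs. These groups did not overlap, though lung 3 of each, at -2.85 and -2.79, lay close. In plain log2 values 40.1% of all tested probe sets did not overlap between these groups, in either direction. The relative means of Slc6a4 were -3.11 ± 0.27 and -2.67 ± 0.13 in CHF ketotifen and sham ketotifen lungs (SD, n = 3 each). CHF placebo lungs spread from -2.71 to -1.97 and sham placebo lungs from -3.20 to -2.28. Maoa relative to the same mean was -1.72 ± 0.17 in CHF ketotifen lungs and -1.99 ± 0.48 in sham ketotifen lungs, with overlapping values. The part of endothelial or macrophage content in either gene was not tested.

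**Figure D2:**
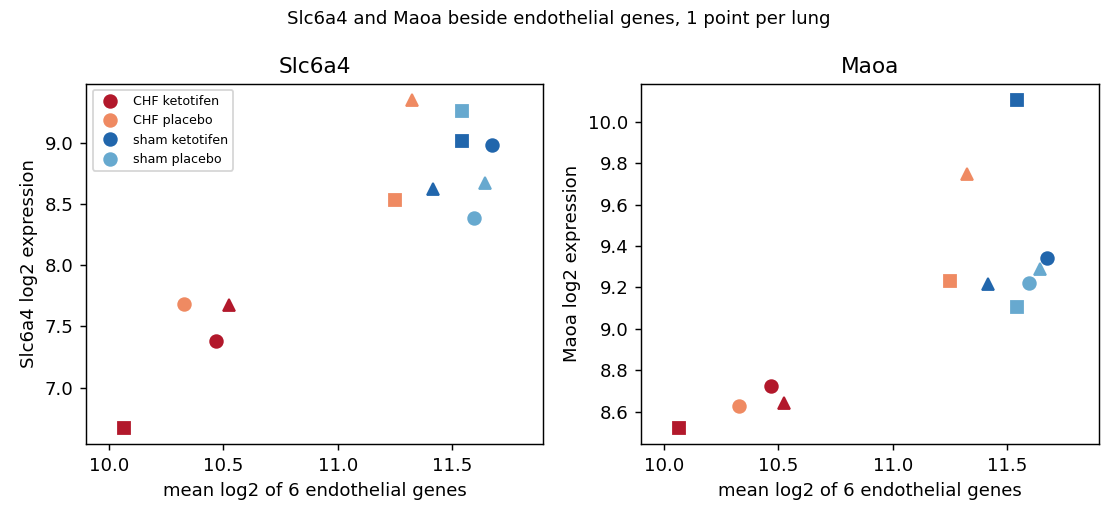
Log2 expression of Slc6a4 (left) and Maoa (right) on the y axes against the mean log2 expression of 6 endothelial genes on the x axes, 1 point per lung, with colours for the group and symbols for the replicate. The 3 CHF ketotifen lungs and CHF placebo lung 1 form the lower left of both panels, at an endothelial mean of 10.07 to 10.53.

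The genes whose pattern over the 12 lungs was most like that of each tested member were found by Pearson's r over tested probe sets with 1 symbol. For Slc6a4 these were Zfp68, Nsd3 and Ahdc1, with r of 0.97, 0.97 and 0.96. For Maoa they were Erg, an endothelial transcription factor gene, Zfp638 and Vezf1, each with r of 0.97. Such likeness was common, since 930 probe sets reached r of at least 0.8 with Slc6a4 and 554 with Maoa. For Htr2c they were Erlin1, Bpgm, which encodes the bisphosphoglycerate mutase of red cells, and Cited2, with r of 0.94, 0.90 and 0.89, and 33 probe sets reached 0.8. Taken over deviations from the group means, r was 0.72, 0.48 and 0.44 for these genes of Htr2c. It was 0.92 to 0.99 for the genes named for Slc6a4 and Maoa. The 12 lungs share 4 groups, so r describes these arrays and has no test.

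Htr2c, a serotonin receptor gene that signals through Gq, had 2 probe sets that did not move together. The brighter probe set measured 4.48, 3.72 and 4.07 in CHF ketotifen lungs and 6.74, 5.31 and 5.72 in CHF placebo lungs. It measured 3.38, 2.87 and 4.07 in sham ketotifen lungs and 3.41, 2.96 and 2.96 in sham placebo lungs. The CHF placebo lungs lay above all others, and the sham lungs were at or near background. The means were 4.09 ± 0.38 in CHF ketotifen, 5.92 ± 0.74 in CHF placebo, 3.44 ± 0.60 in sham ketotifen and 3.11 ± 0.26 in sham placebo lungs (SD, n = 3 each). In order of level the neighbours among the 3 lower groups overlapped. CHF ketotifen and sham placebo lungs, which differ in both surgery and drug, did not overlap. No share over all probe sets was counted for that pair, and its sham placebo values were near background.

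The dimmer probe set of Htr2c stayed low on every array. It was 2.38 to 2.42 in CHF ketotifen, 2.37 to 2.39 in CHF placebo, 2.38 to 2.58 in sham ketotifen and 2.35 to 2.69 in sham placebo lungs. In the annotation this probe set carries a direct GenBank submission, while the brighter one carries an expressed sequence tag, and neither accession is among the RefSeq transcripts of the table used. Whether the brighter probe set reports the mRNA of the Htr2c receptor was not tested, so its values below are those of the probe set.

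For the brighter Htr2c probe set the difference between CHF and sham lungs was 2.81 ± 0.39 (SE) in placebo rats, without overlap, as for 12.7% of all tested probe sets in the higher direction. This is the difference known when the genes were chosen, and it was 2.40 to 3.12 in the 12 runs without 1 lung. Ketotifen rats are separate lungs, and there the difference was 0.65 ± 0.39 (interval -0.21 to 1.51, limma adjusted p = 0.283). CHF ketotifen lungs differed from CHF placebo lungs by -1.83 ± 0.39 and did not overlap them, as for 15.5% of all tested probe sets in the lower direction, and the interaction was -2.16 ± 0.55. Both of these use the CHF placebo arrays and are descriptions. Sham ketotifen lungs differed from sham placebo lungs by 0.33 ± 0.39 with overlap. Because 5 of the 6 sham values lay below 4, where the scale flattens, no fold is given.

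The means of mast cell, red cell and macrophage genes were also higher in CHF placebo than in sham placebo lungs. There limma called 5 of 10 tested mast cell genes, 1 of 2 red cell genes and 0 of 6 macrophage genes higher. Among all tested probe sets 0.145% were called higher. The mast cell genes Hdc and Gata2 went the other way. Hdc was 6.15 to 6.81 in CHF placebo and 6.67 to 7.84 in sham placebo lungs, and Gata2 was 8.47 to 9.40 and 8.85 to 10.22. Between CHF ketotifen and CHF placebo lungs limma called 0 genes of each of these lists, beside 1.22% of all tested probe sets. The mean of the 12 measured mast cell genes, of which 10 averaged at least 4, was 5.36 to 6.41 in CHF ketotifen, 5.72 to 6.92 in CHF placebo, 5.05 to 5.46 in sham ketotifen and 4.12 to 4.80 in sham placebo lungs. The mean of 4 measured red cell genes was 5.84 to 6.04 in CHF ketotifen, 5.50 to 7.52 in CHF placebo, 4.49 to 5.27 in sham ketotifen and 3.90 to 4.46 in sham placebo lungs. Of these 4 genes 2 averaged at least 4. The mean of 6 measured macrophage genes was between 10 and 10.33 in CHF ketotifen, 8.99 to 10.10 in CHF placebo, 8.49 to 8.81 in sham ketotifen and 6.71 to 8.66 in sham placebo lungs. All 3 means were higher in every CHF placebo lung than in every sham placebo lung, and overlapped between CHF ketotifen and CHF placebo lungs. Within CHF placebo, lung 1 had the highest Htr2c value (6.74) with the lowest mast cell (5.72) and red cell (5.50) means and the highest macrophage mean (10.10). The 5 measured neuroendocrine genes averaged 2.86 or less on every array, with none averaging 4. The part of these cells in the Htr2c value was not tested.

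**Figure D3:**
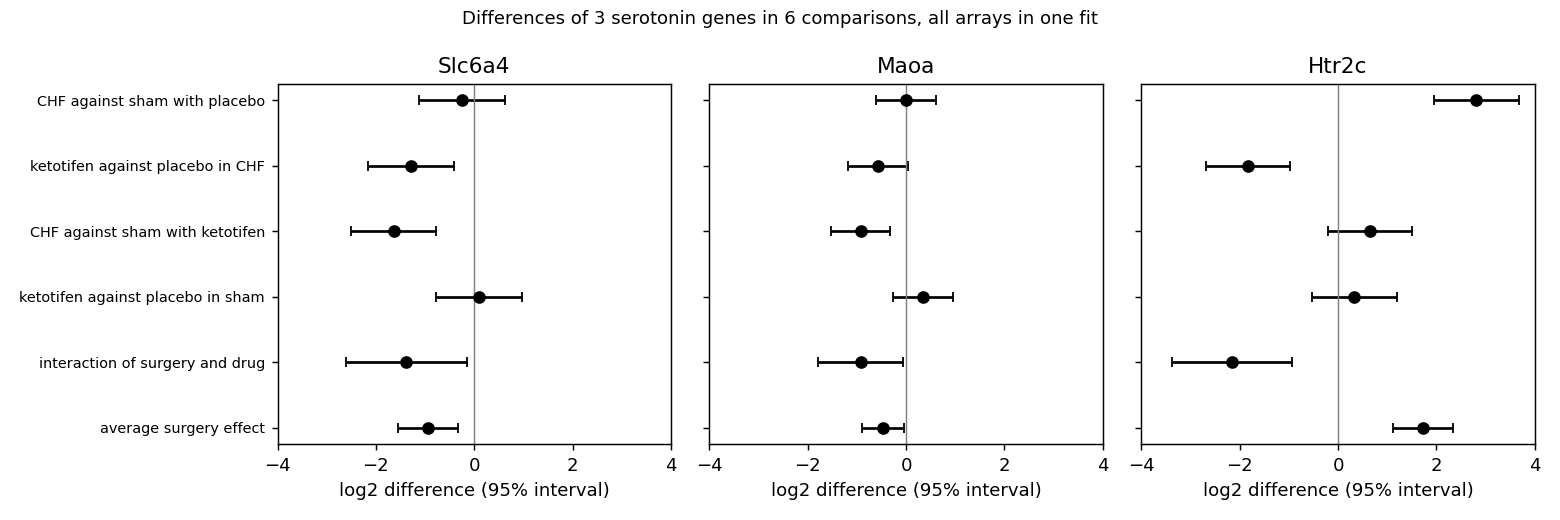
Log2 differences (x axes, with 95% intervals from the moderated fit) of Slc6a4, Maoa and the brighter Htr2c probe set in the 6 comparisons (y axis), each the first group minus the second. Slc6a4 and Maoa lie below 0 for CHF against sham with ketotifen, at -1.64 and -0.93, and Htr2c is largest for CHF against sham with placebo, at 2.81.

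The remaining serotonin receptor probe sets, 7 with the low Htr2c probe set included, were at background on all 12 arrays. They ranged from 1.87 to 3.37, and the 12 values of a probe set spanned 0.32 in the median. Htr2a, the receptor gene for serotonin-evoked vessel and platelet responses, had 4 probe sets, none above 2.83. In 1 of them CHF ketotifen lungs (2.60 to 2.71) lay above sham ketotifen lungs (2.57 to 2.59), as did 19.2% of all tested probe sets without overlap. Htr2b, whose receptor is studied in pulmonary hypertension, was 2.90 to 3.00 in CHF ketotifen, 2.90 to 3.09 in CHF placebo, 2.85 to 3.10 in sham ketotifen and 2.91 to 3.37 in sham placebo lungs. Htr1b, whose receptor mediates constriction of pulmonary arteries, was 2.52 to 2.53 in CHF ketotifen and 2.44 to 2.48 in CHF placebo lungs, and its highest value was 3.08 in sham ketotifen lung 1. The CHF values of Htr1b did not overlap between drug arms, as for 9.86% of all tested probe sets in the higher direction, and lie where the scale is flat. Htr1b, Htr2a and Htr2b were left out of the main test by the minimum, so no difference in them is stated.

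**Figure D4:**
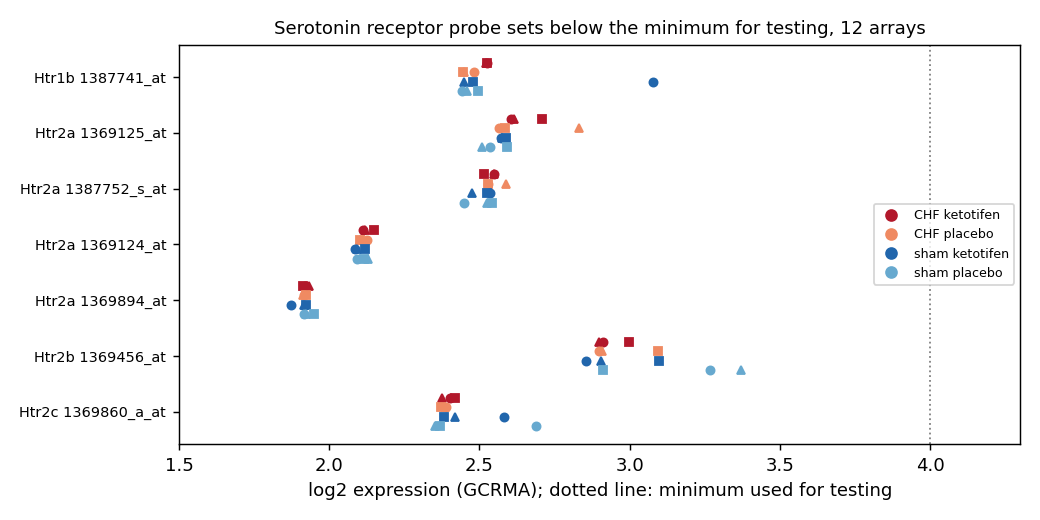
Log2 expression (x axis) of the 7 serotonin receptor probe sets below the minimum for testing (y axis), 1 point per array, with colours for the group and symbols for the replicate. All points lie between 1.87 and 3.37, left of the dotted line at 4.

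Beyond the members, 47 other genes of the serotonin pathway were listed, with earlier results of these data known. Of these 41 were on the array and 20 passed the minimum. The 10 other receptor genes (Htr1a, Htr1d, Htr1f, Htr3a, Htr3b, Htr4, Htr5a, Htr5b, Htr6 and Htr7) all failed it, with values from 1.96 to 3.86. So did Slc18a2, the vesicular transporter gene by which mast cells and platelets load serotonin. The brightest of its 3 probe sets was 2.84, 2.84 and 2.87 in CHF ketotifen lungs, and 2.88, 4.98 and 4.2 in CHF placebo lungs. It was 2.83, 2.73 and 3.22 in sham ketotifen lungs, and 2.68, 2.01 and 2.22 in sham placebo lungs. CHF placebo lungs 2 and 3, the only lungs above 4, were also those of highest mast cell mean, at 6.92 and 6.42, where CHF ketotifen lung 1 followed with 6.41.

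In CHF against sham lungs under ketotifen limma called 2 of the 20 genes higher and 2 lower, 20.0% against 13.0% of all tested probe sets. The median difference of the 20 was -0.11, against -0.03 for all. Slc22a3, which encodes an organic cation transporter that carries serotonin with low affinity, rose by 1.49 ± 0.27 (SE, limma adjusted p = 0.0094). It measured 5.07, 4.91 and 5.95 in CHF ketotifen lungs and 3.77, 3.87 and 3.81 in sham ketotifen lungs. Slc22a3 passed the minimum through the CHF ketotifen arrays, since beside them only CHF placebo lung 2 reached 4. Its calls are therefore descriptions, also where it is counted among the 2 genes called higher. The sham values of Slc22a3 lie below 4, so the size of the rise is uncertain.

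Gch1, which encodes the first enzyme of tetrahydrobiopterin synthesis, the cofactor of tryptophan hydroxylase and of nitric oxide synthases, rose by 2.24 ± 0.45 (limma adjusted p = 0.0133). Its values were 7.84, 8.62 and 7.89 in CHF ketotifen lungs and 5.83, 5.77 and 6.01 in sham ketotifen lungs. In CHF placebo lung 1 Gch1 was 7.46, against 5.89 and 5.35 in the other CHF placebo lungs. Gch1 was thus highest in the 4 lungs of highest macrophage mean (10 to 10.33), and the part of macrophages in its value was not tested. The call was lost without CHF ketotifen lung 2 (1.99, limma adjusted p = 0.0536).

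Maob, the second monoamine oxidase gene, fell by 0.95 ± 0.16 (limma adjusted p = 0.0077). It measured 9.28, 9.31 and 9.15 in CHF ketotifen lungs and 10.15, 10.15 and 10.27 in sham ketotifen lungs. Plcb4, a phospholipase C gene downstream of Gq, fell by 0.79 ± 0.23 (limma adjusted p = 0.0435), and its dimmer probe set gave -0.43 (adjusted p = 0.396 in limma). The Plcb4 call was lost in 8 of the 12 runs that left out 1 lung, with adjusted p up to 0.112 in limma. In the same 12 runs Maob kept its call, with limma adjusted p of at most 0.0332. The calls of Slc22a3, Gch1, Maob and Plcb4 were lost without the 3 lungs with heart muscle signal, a fit that leaves 1 sham ketotifen lung. Over all alternatives, that fit included, the difference was -1.03 to -0.90 for Maob and -0.84 to -0.75 for Plcb4. It was 1.99 to 2.38 for Gch1 and 1.17 to 1.71 for Slc22a3. The part of heart muscle RNA in these values was not tested.

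In placebo rats limma called 0 of the 20 genes between CHF and sham lungs (0.169% of all), with 5 at an unadjusted p under 0.05. Of all 16536 tested probe sets 3326 had such a p. The genes of smallest p in each list were Rhoa (0.52 ± 0.15), Ddc, which encodes the decarboxylase that completes serotonin synthesis (-0.89 ± 0.34), Aldh2 (-0.28 ± 0.17) and Afmid of the kynurenine route (0.37 ± 0.23). Their limma adjusted p lay between 0.127 and 0.382. The median difference of the 20 genes was -0.02, against 0.02 for all tested probe sets.

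For the drug in CHF rats limma called 1 of the 20 genes, beside 1.22% of all tested probe sets. This was Slc22a3, which rose by 1.31 ± 0.27 in CHF ketotifen against CHF placebo lungs (limma adjusted p = 0.0461). The CHF ketotifen arrays also carried it past the minimum for testing, so this call is a description. CHF placebo lungs measured 3.82, 4.42 and 3.74 for Slc22a3, below the 3 CHF ketotifen lungs given above. The call was kept in 1 of the 12 runs that left out 1 lung, with adjusted p from 0.0424 to 0.196 in limma. In the drug comparison of sham rats limma called 0 of the 20 (0.0847% of all), with 6 at an unadjusted p under 0.05. Of all 16536 tested probe sets 2310 had such a p. For the interaction it called 0 of the 20 (0.369% of all), with 3 at an unadjusted p under 0.05, beside 1778 of all.

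For the average surgery effect limma called 3 of the 20 genes higher and 2 lower, 25.0% against 21.0% of all tested probe sets. These were Gch1 (1.53 ± 0.32), Slc22a3 (0.84 ± 0.19) and Qdpr, a gene for recycling of tetrahydrobiopterin (0.46 ± 0.14), which rose, and Maob (-0.46 ± 0.12) and Plcb4 (-0.66 ± 0.16), which fell. The limma adjusted p lay between 0.0107 and 0.0395. Qdpr kept its call in 2 of the 12 runs that left out 1 lung, with limma adjusted p from 0.0033 to 0.0913. Gch1, Maob and Plcb4 kept theirs in all 12. This average uses the ketotifen arrays already described, and its Slc22a3 call is a description for the reason given above.

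**Figure D5:**
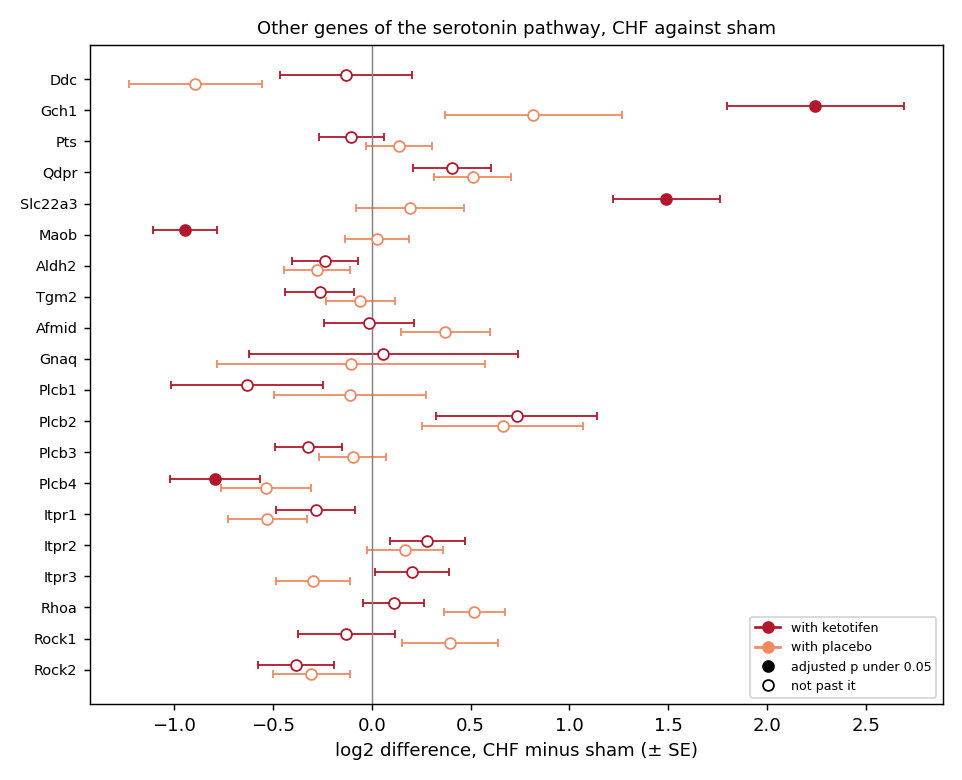
Log2 differences (x axis, ± SE) between CHF and sham lungs of the 20 tested serotonin pathway genes (y axis), in ketotifen rats and in placebo rats, with filled points for an adjusted p under 0.05. With ketotifen Gch1 and Slc22a3 lie to the right, at 2.24 and 1.49, and Maob and Plcb4 to the left, at -0.95 and -0.79, and with placebo no point is filled.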

How the data were processed

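Total RNA of 12 rat lungs was labelled with biotin by a one-cycle protocol and hybridized to Affymetrix rat genome arrays, per the labels' protocols. The deposited values are log2 expression values per probe set, and the submitters' processing notes name GCRMA and R 2.5.0 for the authors' step. Its further settings were not stated. Samples were grouped by their titles. Of 31099 probe sets 57 controls were left out of tests. Symbols came from the platform annotation (20826 probe sets with 1 symbol, 436 with several, 9780 with none), and a lookup of Entrez identifiers in RefSeq changed 0 of them. Probe sets with a log2 value of at least 4 on at least 3 arrays were fitted with limma 3.58.1 in R 4.3.3, with 4 group means, 8 residual degrees of freedom, eBayes with an intensity trend and two-sided tests. The fit was tested on simulated data, and the outcome of that test is not given here. The labels do not say whether rats came from separate litters, so p-values measure the spread between these lungs. Arrays have no read depth, and their number limits the precision. No batch labels were used. Members, marker lists, pathway lists and the lungs left out were chosen with earlier results of these data known. Genes of a list were counted by their brightest tested probe set, and those named were the ones called or, for a list without calls, the one of smallest p. For each tested member spanning at least 1 on the log2 scale the 3 genes of highest r were named. Promoters came from RefSeq, and no genome was used.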

Additional observations from a re-analysis of the deposited data

Results flagged for a closer look

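Maob, the monoamine oxidase B gene, differed between ketotifen and placebo in opposite directions in the 2 surgical arms, without overlap in either. Groups did not overlap, in either direction, for 25.4% of all tested probe sets with the drug in CHF rats and for 16.4% in sham rats, and neither Maob difference was called. In CHF rats it was 9.28, 9.31 and 9.15 with ketotifen and 9.38, 9.70 and 9.59 with placebo, a difference of -0.31 ± 0.16 (SE, limma adjusted p = 0.356). In sham rats it was 10.15, 10.15 and 10.27 with ketotifen and 9.89, 9.20 and 9.51 with placebo, a difference of 0.66 ± 0.16 (limma adjusted p = 0.182). The difference between the arms, tested as the interaction, was -0.97 ± 0.23 with a limma adjusted p of 0.142, and did not pass. Groups of 3 lungs were not tested for outlying lungs.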

How the results depend on the processing

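Differences of the 3 tested members and the 5 named pathway genes were recomputed over 24 alternatives, 12 of which left out 1 lung. Of 658 values 648 kept their direction, while 106 lost a call and 10 gained one. Changes of the filter, the estimate of spread, the replicate block or lungs outside a comparison leave the difference itself unchanged. The pathway differences were also taken because they were called. The 648 is therefore no measure of how stable the directions are. The 10 of other direction were all of differences without a call. For Slc6a4 between CHF and sham placebo lungs they were 0.13 without the 3 lungs of largest 3' minus 5' difference, and runs without 1 lung gave -0.66 to 0.17. For Slc6a4 with the drug in sham rats they were -0.20 without the 3 lungs with heart muscle signal, and -0.092 (without sham placebo lung 1) to 0.34 without 1 lung. For Maoa between CHF and sham placebo lungs they were 0.0020 with arrays centred on their median, 0.028 with array weights and 0.039 without the lungs with heart muscle signal, and -0.27 to 0.28 without 1 lung.

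Calls of Htr2c in comparisons with the CHF placebo arrays are descriptions. These include every call for CHF against sham with placebo. They also include the 1 call for ketotifen against placebo in CHF with median centring or the replicate block. The 1 interaction call with array weights is another. The count of called members moved as follows. For CHF against sham with placebo (1 called) it was 0 with no filter on low values, with the 6 arrays of the comparison alone, and without the 3 lungs of either kind just named, and 0 to 1 without 1 lung. For ketotifen against placebo in CHF (0 called) it was 1 with arrays centred on their median, 3 with array weights and 1 with the replicate block, and 0 to 2 without 1 lung. For CHF against sham with ketotifen (2 called) it was 1 without the intensity trend, with robust eBayes and with the replicate block. It was 0 with no filter on low values, with CHF ketotifen arrays 1 and 3 averaged and without the 3 lungs of either kind, and 0 to 2 without 1 lung. For the interaction (0 called) it was 1 with array weights. For the average surgery effect (2 called) it was 1 with no filter on low values and 0 without the 3 lungs of either kind, and 1 to 3 without 1 lung. For the drug in sham rats it was 0 in all 24. The cause of these moves was not tested, except that fewer lungs leave fewer degrees of freedom.

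Over all tested probe sets the counts of calls moved by more than 1.5 times as well. CHF against sham with placebo had 28, and 0 to 3236 over settings. Ketotifen against placebo in CHF had 201 (59 to 4134), CHF against sham with ketotifen 2145 (28 to 4139), the drug in sham rats 14 (0 to 702), the interaction 61 (2 to 1132) and the average 3467 (58 to 6069). The highest count was with array weights and the lowest without the 3 lungs with heart muscle signal, except in the drug comparison of CHF rats, where it was without CHF ketotifen lung 3. The counts of 0 were also reached by other settings that leave fewer lungs. The replicate numbers did not pair the lungs: the 18 correlations of same-numbered deviations ran from -0.35 to 0.26, and 5 were over 0.1. Signals under 4 limit what can be said of the receptors other than the Htr2c probe set.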
